A study of Equus caballus with 28 samples.

Results

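The horse miRNAs eca-miR-221 and eca-miR-222 were followed through 28 small RNA libraries taken 13 days after ovulation, around the time at which a mare has to recognise that she is pregnant. They are the 2 entries of the deposited counts that carry either name, with any arm suffix allowed, out of 844 counted miRNAs, of which 690 were known horse miRNAs and 154 were predicted ones. Each was present as a single entry without an arm suffix, and both passed the filter on low counts in each of the 9 comparisons. The libraries came from mares that served as their own control, with a pregnant cycle after insemination with semen of the same stallion and an unbred, cyclic control cycle, in random order. Sampled were uterine fluid (UF) and endometrial biopsies of 4 cyclic and 5 pregnant mares, and the embryonic tissue and the yolk sac (YS) fluid of 5 embryos from the pregnant cycles. Sample numbers were read as mares, and mare 5 has no cyclic library here.

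UF was recovered with a tampon before the uterus was flushed for the embryo, and the biopsy was taken last. A biopsy contains epithelium, stroma, vessels and blood, and in such bulk samples fewer cells of a type and less RNA per cell cannot be told apart. RNA of both fluids was extracted with a serum and plasma kit and RNA of both tissues with another kit, so that fluid and kit cannot be told apart in any comparison with a tissue. The libraries held between 61836 and 590593 miRNA reads in endometrium, between 62087 and 226308 in UF, between 28204 and 44768 in embryos and between 4352 and 14531 in YS fluid. Levels are given as CPM, the reads of a miRNA scaled by the miRNA reads of its library. The lowest level that the depth can show, set at 3 reads, was at most 48.5 CPM in endometrium and 48.3 CPM in UF. In the embryos it lay between 67.0 and 106 CPM, and YS fluid was least sensitive with between 206.5 and 689 CPM. Early embryo miRNAs (the miR-302 family, miR-367, miR-371 and miR-372) summed to at most 9.97 CPM in endometrium and 32.2 CPM in UF, and to between 12020 and 264130 CPM in embryos and YS fluid, as their labels require. The YS fluid of mare 2 stood apart, with 14.3% of its reads on miR-371-5p and 8.44% on miR-372, where the other YS fluids had between 0.365% and 1.40% and between 0.227% and 0.827%. The changes of the pair in YS fluid, and the counts of other miRNAs set beside them, are therefore given with and without this library.

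miR-221 and miR-222 are encoded next to each other on the X chromosome of mammals and are made from a common primary transcript. They share the seed, the part of a miRNA that pairs with its target, and so can act on the same messenger RNAs. In human cells they are known to repress the growth factor receptor KIT and the cell cycle inhibitor CDKN1B, and the oestrogen receptor ESR1 is among their reported targets. Both are abundant in endothelial cells, where their repression of KIT limits the formation of vessels. In the RefSeq annotation of the horse, the entries MIR221 and MIR222 follow each other on chromosome X, with no other annotated gene between them.

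Both miRNAs were most abundant in UF, lower in endometrium, and lowest in the embryo. In cyclic endometrium miR-221 was measured at 5644, 4597, 3713 and 7173 CPM in mares 1 to 4, a mean of 5282 ± 1488 CPM (SD, n = 4). In pregnant endometrium it was measured at 4366, 4938, 4004, 7298 and 4865 CPM in mares 1 to 5, a mean of 5094 ± 1290 CPM (SD, n = 5). Mare 4 was the highest in both cycles and mare 3 the lowest, and the ranges of the groups overlapped. In cyclic UF the levels of miR-221 were 9502, 14507, 10711 and 15526 CPM, with a mean of 12561 ± 2907 CPM (SD, n = 4). In pregnant UF they were 7147, 9147, 12037, 12737 and 10597 CPM, with a mean of 10333 ± 2253 CPM (SD, n = 5). Mare 1 had the lowest and mare 4 the highest UF level in either cycle. These levels placed miR-221 between rank 24 and 34 of all miRNAs in endometrium and between rank 15 and 27 in UF.

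miR-222 was the less abundant mate in every library. It was measured at 679, 535, 379 and 711 CPM in cyclic endometrium (mean 576 ± 152, SD, n = 4) and at 212.2, 325, 193.03, 600 and 222.2 CPM in pregnant endometrium (mean 311 ± 170, SD, n = 5). Mares 1, 2, 3 and 5 were lower during pregnancy than any cyclic mare, and pregnant mare 4 lay within the cyclic range. In cyclic UF it stood at 1991, 1228, 1723 and 2237 CPM (mean 1795 ± 432, SD, n = 4), and in pregnant UF at 1655, 778, 850 and 1181 CPM in mares 1 to 4 and 1061 CPM in mare 5 (mean 1105 ± 347, SD, n = 5). Mares 2 to 5 were below the cyclic range during pregnancy and mare 1 was within it. miR-222 ranked between 74 and 115 in endometrium and between 43 and 67 in UF.

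In the embryos the pair was close to what the depth can show. miR-221 had 4, 3, 6, 7 and 20 reads, which gave 141.8, 67.0, 166, 242 and 483 CPM and a mean of 220 ± 160 CPM (SD, n = 5). miR-222 had 3, 0, 1, 2 and 3 reads and therefore lay at or under the 3-read level in each of the 5 embryos. In YS fluid miR-221 had 14, 204, 18, 8 and 12 reads, or 1846, 14113, 1378, 1838 and 826 CPM. miR-222 had 3, 61, 0, 3 and 1 reads there, or 396, 4220, 0, 689 and 68.8 CPM. The YS fluid of mare 2 was far above the other YS fluids for both mates and lay within the UF range for miR-221 and above it for miR-222. With this library the mean of YS fluid was 4000 ± 5669 CPM for miR-221 and 1075 ± 1780 CPM for miR-222 (SD, n = 5). Without it, the means were 1472 ± 483 and 288 ± 318 CPM (SD, n = 4). That library had 208 CPM of the endothelial miR-126 strands, which is its 3-read level, where the others had between 138 and 460 CPM. It had the lowest sum of stromal miRNAs, 484 CPM. Its sum of epithelial miRNAs was also the lowest, 48703 CPM against between 85018 and 117864 CPM. Whether its make-up played a part in its levels of the pair was not tested.

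**Figure D1:**
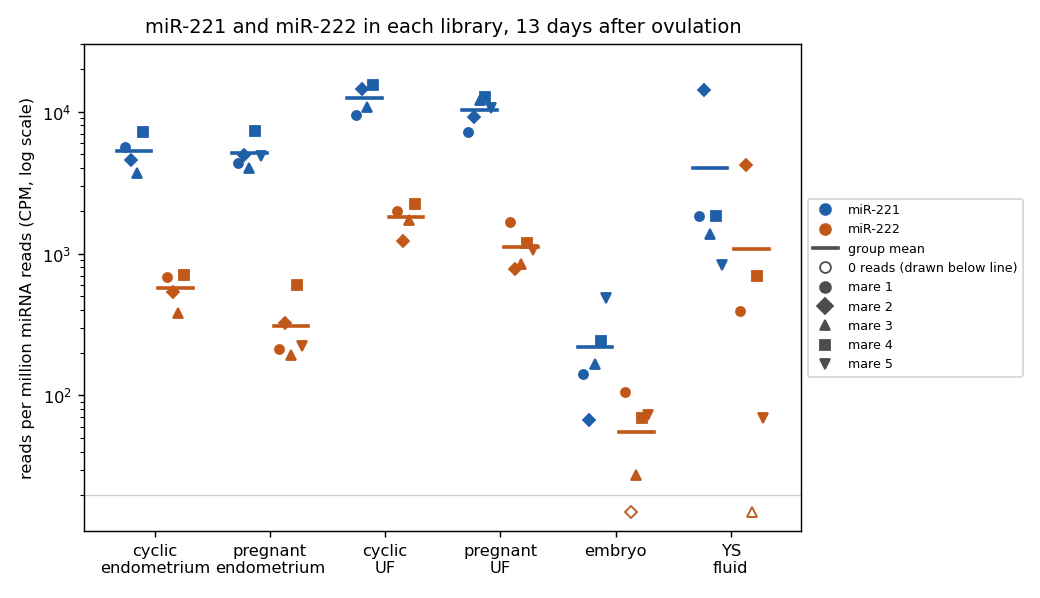
Level of miR-221 (blue) and miR-222 (orange) in each of the 28 libraries in CPM on a log axis, with the marker shape giving the mare, a bar for the group mean and open symbols below the line for libraries with 0 reads. The 5 embryos lie between 67.0 and 483 CPM for miR-221, below every other library, and the YS fluid of mare 2 stands at 14113 and 4220 CPM, above the other YS fluids.

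Pregnant and cyclic mares were compared by the study in its search for candidate signals of maternal recognition of pregnancy and for a possible role of miRNAs in it. In the endometrium neither mate passed the thresholds. By CPM the mates differed in opposite directions in 3 of 4 mares, where the changes of miR-221 were at most 1.08-fold. Within the 4 mares sampled in both cycles, miR-222 was lower during pregnancy in 4 of 4, with levels 3.20-fold lower in mare 1, 1.64-fold in mare 2, 1.97-fold in mare 3 and 1.19-fold in mare 4. Of all miRNAs tested, 6.48% were lower in all 4 mares. miR-221 was higher during pregnancy in 3 of 4 mares, by 1.07-, 1.08- and 1.02-fold in mares 2, 3 and 4, and 1.29-fold lower in mare 1. Mare 1 was the animal in which both were lower by CPM. The direction of such small changes of miR-221 depended on the scaling. With TMM normalization over 28 libraries, miR-221 of mare 4 was at 11789 CPM in the cyclic and 11569 CPM in the pregnant cycle, and so was lower during pregnancy. In the quasi-likelihood test of edgeR with the mare as a block, the log2 fold change was 0.20 (SE 0.23, FDR 0.80) for miR-221 and -0.65 (SE 0.33, FDR 0.289) for miR-222. The unadjusted p of miR-222 was 0.0479 in this test, and FDR stands for the Benjamini-Hochberg adjusted p over all miRNAs tested. Calls required an FDR no higher than 0.05 together with a change of 2-fold or more, which 3.37% of all miRNAs tested passed. That was 13 of 386, and in a fit of known miRNAs alone 2 of 267 passed. The paper considers the number of its predicted miRNAs likely too high, with duplicates of nearly the same counts. Shares of all miRNAs given here may therefore count a sequence more than once. The study, using edgeR and these thresholds, listed miR-221 among the miRNAs higher in pregnant than in cyclic endometrium. That call was not found here, and the reason for the difference was not tested. Mare 5, with no cyclic library, entered the normalisation but not the contrast. The fewest reads of miR-222 in endometrium were 42, in cyclic mare 1, whose library was the shallowest there.

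**Figure D2:**
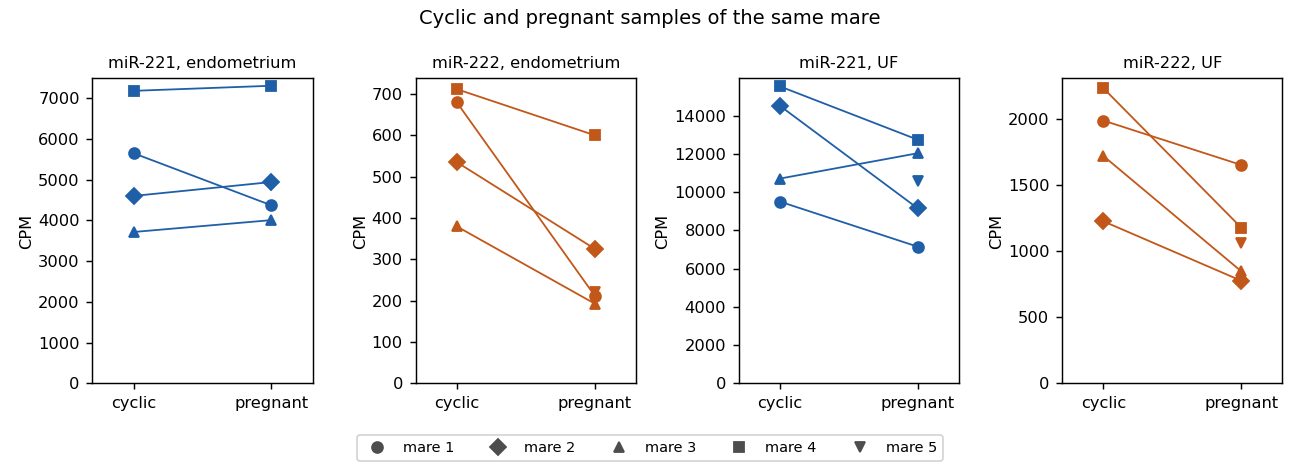
CPM of miR-221 and miR-222 in the cyclic and the pregnant cycle of each mare, in endometrium and in UF, with a line joining the samples of a mare (mare 5 has a pregnant sample only) and each vertical axis starting at 0. All 4 lines run downward for miR-222 in both compartments, by 1.19-fold to 3.20-fold in endometrium, while the lines of miR-221 go in both directions.

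Since both mates are counted in the same library, their ratio does not depend on the scaling of libraries. It is a ratio of reads and not of molecules, because ligation and amplification differ between miRNAs. In cyclic endometrium there were 8.31, 8.60, 9.79 and 10.1 reads of miR-221 for each read of miR-222 in mares 1 to 4. In pregnant endometrium there were 20.6, 15.2, 20.7, 12.2 and 21.9 in mares 1 to 5. The cyclic mares lay close together, every pregnant mare was above every cyclic mare, and the groups did not overlap. miR-222 accordingly made up between 9.02% and 10.7% of the reads of the pair in cyclic and between 4.37% and 7.59% in pregnant endometrium. Within mares, the log2 ratio was higher during pregnancy by 1.31, 0.82, 1.08 and 0.27, a mean difference of 0.87 ± 0.45 (SD, n = 4 mares), which is a 1.83-fold higher ratio. An exact sign-flip test (two-sided) gave p = 0.125, the smallest p that 4 pairs allow, and an adjusted p of 0.225 over the 9 comparisons of the ratio. With no pairing and mare 5 included, the difference was 0.95, with an exact permutation p of 0.0159 (two-sided) and an adjusted p of 0.141.

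To place this shift, the same ratio was computed for other miRNAs that lie next to each other in the genome, from a list of 17 such pairs of which 1 was not in the counts. In 7 of them both mates had at least 10 reads in every endometrial library. Their mean shifts between the cycles had a size between 0.054 and 0.591 on the log2 scale, with a median of 0.235, and the cyclic and pregnant ratios overlapped in all 7. The largest was that of miR-200c and miR-141, epithelial miRNAs, at 0.59 ± 0.81 (SD, n = 4 mares). miR-532-5p and miR-660 shifted by -0.39 ± 0.27. The shift of miR-221 and miR-222 was larger than that of the 7 others, which is a description of these pairs without a test.

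**Figure D3:**
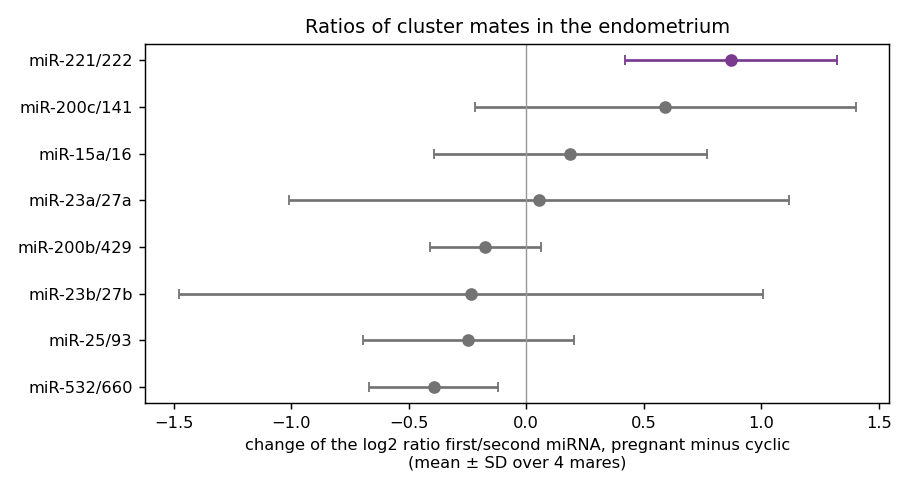
Change of the log2 ratio of cluster mates in the endometrium, pregnant minus cyclic, as the mean ± SD over 4 mares, for miR-221/miR-222 (purple) and the 7 other pairs with at least 10 reads of each mate in every library (grey). The change of miR-221/miR-222 is 0.87 ± 0.45 and those of the other pairs have a size of at most 0.591.

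In UF, too, neither mate passed the test. miR-222 was lower in 4 of 4 mares, by 1.20-, 1.58-, 2.03- and 1.89-fold, and 10.2% of all miRNAs tested were lower in all 4. By CPM miR-221 was lower in 3 of 4 mares, by 1.33-, 1.59- and 1.22-fold in mares 1, 2 and 4, and 1.12-fold higher in mare 3. With TMM normalization over 28 libraries the directions of mares 3 and 4 were exchanged. miR-221 then went from 18278 CPM in cyclic to 17519 CPM in pregnant UF in mare 3, and from 20239 to 22017 CPM in mare 4. The log2 fold change was -0.21 (SE 0.32, FDR 0.923) for miR-221 and -0.63 (SE 0.40, FDR 0.551) for miR-222 in edgeR's quasi-likelihood test within mares, where 4.92% of all miRNAs were called. The ratio was 4.77, 11.8, 6.21 and 6.94 reads of miR-221 for each read of miR-222 in cyclic UF of mares 1 to 4, and 4.32, 11.8, 14.2, 10.8 and 9.99 in pregnant UF of mares 1 to 5. Mares 1 and 2 had nearly the same ratio in both cycles, mares 3 and 4 a higher ratio during pregnancy, and the groups overlapped. The mean difference within mares was 0.42 ± 0.62 on the log2 scale (SD, n = 4 mares; exact sign-flip test, two-sided, p = 0.5, adjusted p = 0.5), and 3 of 6 other cluster pairs shifted by more than that in UF. A difference between the pregnancy effects of UF and endometrium was not found for either mate. The interaction, UF minus endometrium, was -0.53 (SE 0.38, FDR 0.932) for miR-221 and -0.09 (SE 0.47, FDR 1) for miR-222 on the log2 scale by edgeR's quasi-likelihood test.

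**Figure D4:**
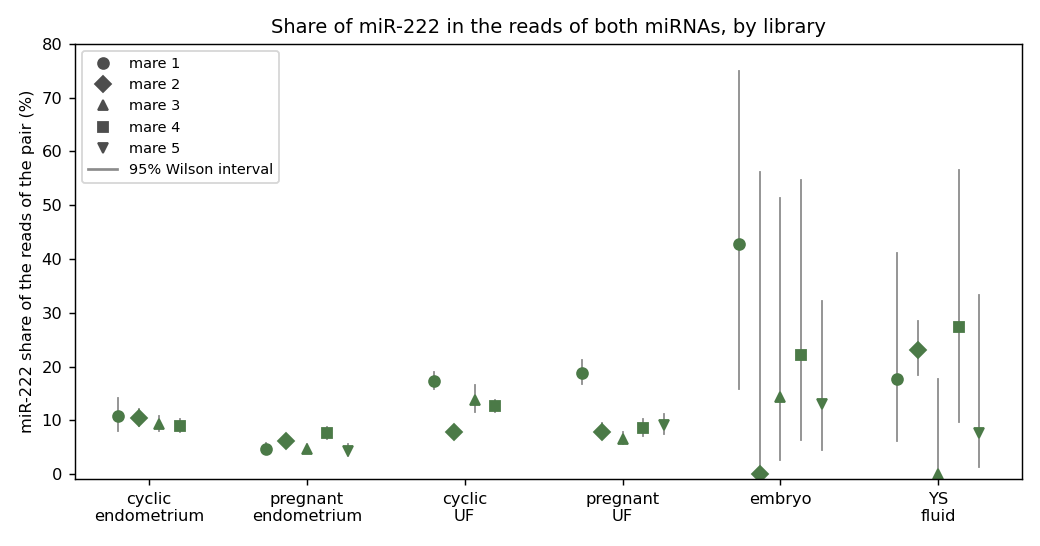
Share of miR-222 in the summed reads of miR-221 and miR-222 in each library in percent, with 95% Wilson intervals that cover counting error only and the marker shape giving the mare. The pregnant endometrium lies between 4.37% and 7.59%, below the cyclic endometrium at between 9.02% and 10.7%, and the intervals are wide in the embryos and YS fluids, which hold few reads of the pair.

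Between UF and endometrium of the same cycle, both mates were higher in the fluid in every mare. During pregnancy miR-222 was 7.80-, 2.39-, 4.41-, 1.97- and 4.77-fold higher in UF than in the endometrium of the same mare, and miR-221 was 1.64-, 1.85-, 3.01-, 1.75- and 2.18-fold higher. For miR-222 the groups did not overlap, which was so for 13.4% of all miRNAs in the direction of UF, while for miR-221 the lowest UF (mare 1) was just below the highest endometrium (mare 4). By edgeR's quasi-likelihood test, miR-222 rose by 1.75 on the log2 scale (SE 0.35, FDR 0.00122). miR-221 had an FDR of 0.00626 but a log2 fold change of 0.92 (SE 0.23), under the fold change of 2 that a call required, and without mare 3 its value was 0.70 with an FDR of 0.0672. In this comparison 33.7% of all miRNAs were called and 13.6% were called higher.

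In the cyclic mares the order was the same. miR-221 was 1.68-, 3.16-, 2.88- and 2.16-fold higher in UF than in endometrium and miR-222 2.93-, 2.30-, 4.54- and 3.15-fold higher in mares 1 to 4. The groups did not overlap for either mate, as for 8.84% of all miRNAs in that direction. Both were called, miR-221 at a log2 fold change of 1.14 (SE 0.31, FDR 0.00994) and miR-222 at 1.57 (SE 0.40, FDR 0.0067) by edgeR's quasi-likelihood test, with 30.8% of all miRNAs called and 11.9% called higher. Without mare 4 the FDR was 0.0639 for miR-221 and 0.0615 for miR-222, and without mare 2 that of miR-221 was 0.0527. A single fit of 28 libraries gave log2 fold changes of 1.33 (FDR 0.0568) and 1.69 (FDR 0.0781) and also ended both calls.

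The balance of the mates differed less firmly between the compartments. The log2 ratio of miR-221 to miR-222 was 0.89 lower in UF than in endometrium of pregnant mares, a 1.86-fold lower ratio (exact permutation test, two-sided, n = 5 and 5, p = 0.0159, adjusted p = 0.0714). In cyclic mares the difference was -0.38 (exact permutation test, n = 4 and 4, p = 0.229, adjusted p = 0.343). Shifts of the pair were not large beside those of other cluster mates here, since 4 of 6 other pairs shifted by more between pregnant UF and endometrium and 5 of 6 between cyclic UF and endometrium. The higher levels of the pair in UF went with other differences in the make-up of the samples. The endothelial strands miR-126-3p and miR-126-5p summed to between 1598 and 4816 CPM in endometrium and to between 7.42 and 316 CPM in UF, and 5 stromal miRNAs to between 12110 and 45569 CPM and between 275 and 5532 CPM. The 6 epithelial miRNAs summed to between 49244 and 72098 CPM in endometrium and to between 50510 and 97730 CPM in UF, and these ranges overlapped. Of them, miR-205 was between 5.81 and 262 CPM in endometrium and between 505 and 3040 CPM in UF, while miR-141 had a lower median in UF than in endometrium of the same cycle (4748 against 5431 CPM in pregnant and 6321 against 8297 CPM in cyclic mares). Leucocyte miRNAs were between 1956 and 3474 CPM in endometrium and between 1268 and 2791 CPM in UF. Red blood cell miRNAs were between 2674 and 13506 CPM in endometrium and between 519 and 3246 CPM in UF, with miR-144 at 0 reads in cyclic UF. The part of these differences, and of the kits, in the levels of the pair was not tested.

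The embryo was the sample with the least of both mates, and the difference from endometrium was larger for miR-221 than for miR-222. miR-221 was between 10.1- and 73.7-fold lower in the embryo than in the endometrium of the mare that carried it, and between 21.9- and 136-fold lower than in her UF. The embryos did not overlap with the endometrium for either mate, as for 29% of all miRNAs in that direction, nor with pregnant UF, as for 22.6%. In edgeR's quasi-likelihood test, miR-221 was lower in embryos than in pregnant endometrium by a log2 fold change of -5.87 (SE 0.47, FDR 7.92e-07) and lower than in pregnant UF by -7.12 (SE 0.49, FDR 1.56e-07). miR-222 differed by -3.80 (SE 0.69, FDR 0.000463) and -5.85 (SE 0.73, FDR 2.87e-05). Of all miRNAs, 71.3% were called against endometrium and 68.4% against UF, and 42.6% and 38.7% were called lower, so calls in this direction were common. The median of all miRNAs was itself at -1.03 against endometrium, and at -0.56 when libraries were scaled by RLE size factors in edgeR, with both mates called on either scale.

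Because miR-222 rested on 9 reads in all embryos, its change is best read with the counting error. Over all reads, its share was 5.73-fold lower in embryos than in pregnant endometrium (exact 95% interval 3.00 to 12.6) and that of miR-221 21.9-fold lower (16.1 to 30.7). These intervals do not overlap, but they cover counting error only and not the spread between embryos. The log2 ratio of the mates was 2.25 lower in embryos than in pregnant endometrium, and the groups did not overlap (exact permutation test, two-sided, n = 5 and 5, p = 0.00794, the smallest p this design allows, adjusted p = 0.0714). Few reads limit this test. The embryo of mare 2, with 0 reads of miR-222, had a log2 ratio of 2.81, the highest its 3 reads of miR-221 allow with 0.5 added. This was below every pregnant endometrium. The embryo of mare 1, with 4 reads of miR-221, could not have reached the endometrium either. Depth fixed the side of these embryos in advance, so the test cannot separate a lower ratio from low depth. The adjusted p depended on the setting. It was 0.0476 with 1 read in place of 0.5 added to each count and 0.0357 with none, which drops the embryo of mare 2, while pairing by mare gave 0.141 (exact sign-flip p = 0.0625, the smallest that 5 pairs allow) and leaving out a mare between 0.0857 and 0.257. Against pregnant UF the difference of the log2 ratio was -1.36 (exact permutation test, p = 0.0317, adjusted p = 0.0952). The limit from few reads applies here too, and it is stricter with 1 read added.

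YS fluid, the fluid that the embryo encloses, differed from the embryonic tissue itself. miR-221 was higher in the YS fluid than in the embryo of the same mare in 5 of 5, by 13.0-, 211-, 8.31-, 7.58- and 1.71-fold, and the 2 groups did not overlap, as for 9.65% of all miRNAs in that direction. It was called, with a log2 fold change, embryo over YS fluid, of -3.75 (SE 0.95, FDR 0.0143), and of -2.04 (SE 0.57, FDR 0.0265) without the YS fluid of mare 2, by edgeR's quasi-likelihood test. When embryo and YS fluid of mare 2 were both left out, the FDR was 0.057. For miR-222 the call did not last. Its log2 fold change was -3.77 (SE 1.34, FDR 0.0444), and it was -2.14 (FDR 0.188) with the mare as a block and -1.23 (FDR 0.307) without the YS fluid of mare 2, while 35.1% of all miRNAs were called and 13.1% were called lower, or 23.2% and 9.36% without that YS fluid. Of the fits that left out a mare, the one without mare 1 kept the call of miR-222, and those without mare 2, 3, 4 or 5 gave an FDR of 0.487, 0.0578, 0.0677 and 0.0755.

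Against the maternal samples, miR-221 was lower in YS fluid. By edgeR's quasi-likelihood test its log2 fold change was -2.31 (SE 0.65, FDR 0.00686) against pregnant endometrium and -2.79 (SE 0.75, FDR 0.00507) against pregnant UF, and -4.11 (SE 0.42, FDR 5.95e-09) and -4.73 (SE 0.39) without the YS fluid of mare 2. The first of these calls depended on the scaling, with values of -1.43 (FDR 0.0778) under RLE size factors and -1.44 (adjusted p 0.0895) in DESeq2. It also depended on single mares, with -1.84 (FDR 0.0921) without mare 4 and -1.79 (FDR 0.0642) without mare 5. In 4 of 5 mares miR-221 was lower in YS fluid than in endometrium, and in mare 2 it was 2.86-fold higher. By CPM, miR-222 was higher in YS fluid than in endometrium in mares 1, 2 and 4, by 1.86-, 13.0- and 1.15-fold. It was lower in mares 3 and 5. miR-222 was not called in YS fluid against endometrium at -0.09 (SE 0.83, FDR 0.942) or against UF at -1.43 (SE 0.90, FDR 0.18), where 53.1% and 59.6% of all miRNAs were called and 35.2% and 36.1% were called lower. The YS fluid of mare 2 decided these values. Without it miR-222 stood at -2.79 (SE 0.71, FDR 0.00173) against endometrium and at -4.27 (SE 0.68, FDR 5.30e-05) against UF, and with the mare as a block at -3.14 (FDR 0.00212) against UF. The 4 remaining YS fluids held 7 reads of miR-222. Counting all reads of these 4 fluids, its share was 1.62-fold lower than in endometrium, with an exact 95% interval from 0.782-fold to 4.06-fold, so that a difference from endometrium was not detectable by read share at this depth. The share of miR-221 in the same fluids was 3.71-fold lower than in endometrium (2.83 to 4.97) and 7.74-fold lower than in UF (5.89 to 10.4). These are smaller changes than the fits gave. Scaling bears on the values of both mates, as the median of all miRNAs in YS fluid over endometrium was -1.65 in the fit without the YS fluid of mare 2. With 5 YS fluids it was -0.84, and -0.01 with RLE size factors. Without that YS fluid, 51.1% of all miRNAs were called against endometrium and 52.6% against UF.

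**Figure D5:**
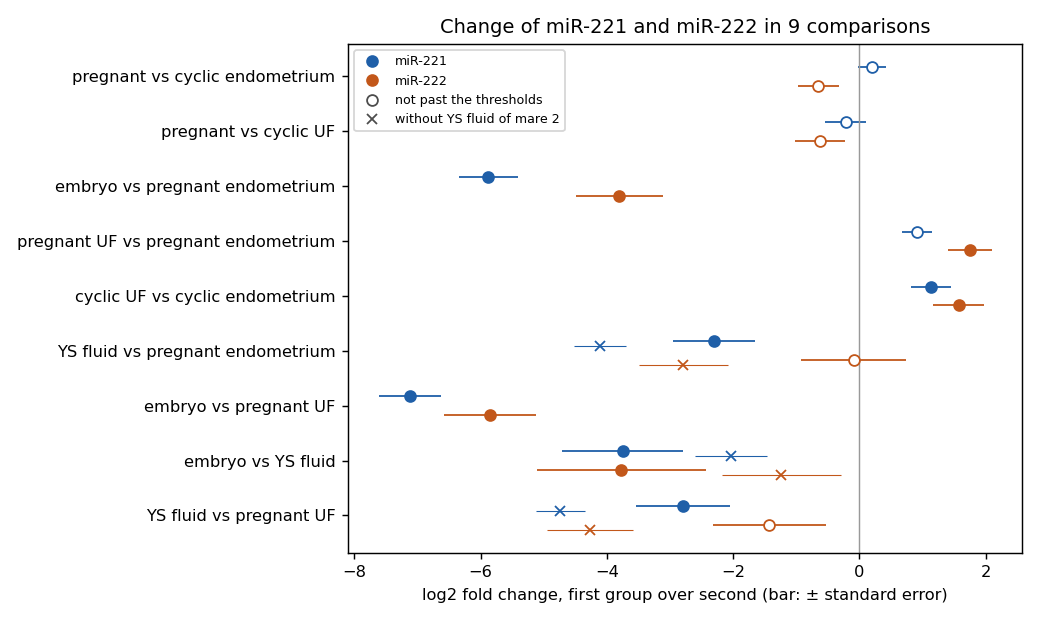
Log2 fold change ± SE of miR-221 (blue) and miR-222 (orange) in 9 comparisons by edgeR's quasi-likelihood test, filled where FDR and fold change passed the thresholds, with crosses for the fit without the YS fluid of mare 2. Both mates lie to the left of 0 for the embryo and to the right for UF over endometrium, and the crosses of YS fluid over pregnant UF lie at -4.73 and -4.27.

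Between embryo, endometrium and UF of the same cycle the mates differed in the same direction in every mare. Between YS fluid and pregnant endometrium they did so in 3 of 5. With 5 YS fluids, the mean of miR-222 in YS fluid (1075 CPM) was above pregnant and cyclic endometrium (311 and 576 CPM). That of miR-221 (4000 CPM) was below them (5094 and 5282 CPM). Without the YS fluid of mare 2, the order of mean levels was the same for both mates, from embryo over YS fluid and endometrium to UF. Of the neighbours in that order that were compared, pregnant and cyclic endometrium and pregnant and cyclic UF were not called for either mate, and embryo and YS fluid without mare 2 were not called for miR-222. For miR-222, YS fluid without mare 2 and pregnant endometrium were close in CPM (means of 288 and 311) and were called in the fit, which rescales libraries by TMM. Cyclic endometrium and pregnant UF were not compared. Among 215 miRNAs with a mean of at least 100 CPM over the 6 groups, the miRNA most like miR-221 over 28 libraries was miR-222 (Pearson r of log2 CPM 0.93), and the converse also held. Next to miR-221 came miR-98 (0.93), miR-27a (0.91), let-7a (0.91) and miR-328 (0.90). Next to miR-222 came miR-92b (0.91), miR-449a (0.86), miR-34b-3p (0.85) and miR-98 (0.84). These coefficients are descriptions, because the libraries share 6 groups, 5 mares, 2 kits and differ in depth, and most of the spread lies between the embryo and the rest. The YS fluid of mare 2 bore on the first rank, as without it miR-222 stood at position 15 for miR-221 and miR-221 at position 3 for miR-222 (r = 0.94). Over the 18 endometrium and UF libraries alone the mates had r = 0.76 and positions 8 and 11. For the deviations of these 18 from their group means, r was 0.42 and the positions 46 and 23.

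Other miRNAs with known roles in vessel formation gave a background to the pair in each comparison. Of 21 such miRNAs listed, 20 were in the counts and 19 were tested. In pregnant against cyclic endometrium 0 of 19 were called, as neither mate was, with a median log2 fold change of 0.08 beside 0.08 for all miRNAs tested. In UF, 2 of 19 rose during pregnancy, miR-23a by 1.40 (SE 0.40, FDR 0.0137) and miR-23b by 1.73 (SE 0.38, FDR 0.0023) on the log2 scale by edgeR's quasi-likelihood test, and 0 fell, with 1.31% of all miRNAs called higher and 3.61% lower. This count was 0 with no block, with filterByExpr, in a single fit of 28 libraries and without mare 2 or mare 3, and 1 without mare 4 and in edgeR's likelihood ratio test. Between embryo and pregnant endometrium 7 rose and 8 fell, where 28.7% of all miRNAs rose and 42.6% fell. By log2 fold change, miR-16 (1.70) and miR-378 (3.48) were higher in the embryo, and miR-27b (-3.78) and miR-24 (-3.89) lower, as both members of the pair were. The median was -0.71 beside -1.03 for all miRNAs.

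From pregnant endometrium to UF 2 of these 19 were called higher and 3 lower, and from cyclic endometrium to cyclic UF 0 higher and 2 lower. Of all miRNAs, 20.1% were called lower in pregnant and 18.9% in cyclic UF. The 2 lower in both were miR-126-3p and miR-126-5p, which are made in endothelium, at -4.64 and -4.47 in pregnant and -5.47 and -6.20 in cyclic mares on the log2 scale. The members of the pair had the opposite sign in both cycles, although miR-221 was not called in pregnant mares. Which cells the pair in UF came from was not tested. In YS fluid against pregnant endometrium 6 were higher and 11 lower, and against pregnant UF 6 were higher and 8 lower. Of all miRNAs, 17.9% were called higher and 35.2% lower against endometrium, and 23.5% and 36.1% against UF. Without the YS fluid of mare 2 the list had 6 higher and 11 lower against endometrium and 5 higher and 8 lower against UF, beside 16.4% and 34.7% and 19.4% and 33.2% of all miRNAs. The embryo differed from UF with 7 higher and 6 lower, and from YS fluid with 4 higher and 2 lower. Of all miRNAs, 29.7% were called higher and 38.7% lower against UF, and 22% and 13.1% against YS fluid. Without the YS fluid of mare 2, 5 were higher and 2 lower than in YS fluid, beside 13.9% and 9.36% of all miRNAs.

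Of 6 further miRNAs reported to act on ESR1, 3 were tested between the cycles and 0 were called in endometrium or in UF. Against pregnant endometrium, 4 of 5 tested were higher in the embryo (miR-18a, miR-18b, miR-22 and miR-302c) and 0 were lower, where both members of the pair were lower and 28.7% of all miRNAs were called higher. The embryo had 4 of 5 higher than UF, beside 29.7% of all miRNAs. YS fluid had 3 of 4 higher than endometrium and 3 of 4 higher than UF, beside 17.9% and 23.5%, and both counts were 3 without the YS fluid of mare 2. Between pregnant UF and endometrium 3 of the list were tested, against 5 with the embryo and 4 with YS fluid. Members thus passed the filter through the group where they are high. miR-302c, an early embryo miRNA, had 0 reads in 4 of 5 pregnant endometria. The direction of such members was fixed by the filter, so these counts do not show a direction of the list. In UF against endometrium 1 of 3 was higher in pregnant mares, miR-22 with a log2 fold change of 1.02 (SE 0.29, FDR 0.0128 by edgeR's quasi-likelihood test), beside 13.6% of all miRNAs, and 0 of 3 in cyclic mares, beside 11.9%. The call in pregnant mares lay just past the required fold change, and 0 were called with DESeq2, RLE size factors, no filter, a single fit of 28 libraries and without mare 1 or mare 3. Between embryo and YS fluid 1 was higher and 1 lower of 5 tested, with and without the YS fluid of mare 2, beside 22% and 13.1% of all miRNAs with it.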

How the data were processed

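The authors trimmed adapters with cutadapt (version 1.11 per the labels), removed reads under 17 bases and of low quality, counted reads with miRPro on the known horse miRNAs of miRBase and on miRNAs predicted on EquCab2.0, and deposited the raw read counts without normalization. How reads matching several miRNAs were counted is not given in the sources used here. The counts of precursors of predicted miRNAs were not used, and 0 columns were left without a sample. Sequences of the miRNAs were not used here. RefSeq gene order comes from another horse assembly, so no coordinates are given.

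Known and predicted miRNAs were analysed together. Predicted entries with identical results were kept as separate miRNAs and entered every share of all miRNAs. For embryo against YS fluid, 57 were called higher and 34 lower of 259. With known miRNAs alone, 33 were called higher and 30 lower of 180. For every comparison, only the libraries it concerns entered edgeR 4.0.16 (R 4.3.3). The filter asked for 1 CPM or more in as many libraries as the smaller group has, followed by TMM normalization, the quasi-likelihood test and Benjamini-Hochberg adjustment, with the SE taken as the log2 fold change over the root of F. Pregnant and cyclic samples were blocked by mare. Their pairing comes from the switch-back design of the study. Deviations from group means of same-mare samples correlated at 0.176 on average in endometrium and 0.242 in UF, and those of different mares at -0.045 and -0.0615. The ratio of the mates was log2 of the reads plus 0.5, compared by exact sign-flip or permutation tests in Python 3.11.15 with scipy 1.17.1, and adjusted over 9 comparisons. Likeness was Pearson's r of log2 CPM (prior count 2, TMM over 28 libraries), naming the 5 highest. Amplified copies of a molecule are not independent, so intervals and 3-read levels reflect counting error alone. Alternatives were DESeq2 1.42.0, RLE size factors, other filters and tests, the block added or left out, 28 libraries in a single fit, known miRNAs only, other pseudocounts and each mare left out. Leaving out the YS fluid of mare 2 and restricting likeness to endometrium and UF were added after seeing the data. The fits were tried on simulated counts for pregnant against cyclic endometrium and for embryo against pregnant endometrium. All miRNAs had the same dispersion there, and as many were raised as lowered. A shift of most miRNAs in a single direction was therefore not simulated. The members, lists of miRNAs and cluster pairs were chosen with earlier results of these data known, and the named miRNAs of the lists were the called ones of highest mean level.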

Additional observations from a re-analysis of the deposited data

Results flagged for a closer look

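The level of each mate and their ratio were examined in 6 groups of 4 or 5 libraries, which makes 18 sets of values. In 3 of 18 sets, a library had a gap to its nearest neighbour above Dixon's 95% critical value. For independent, normally distributed values chance gives this in about 1 of 20 sets. The sets were not independent, as the YS fluid of mare 2 was flagged for both mates. Pregnant endometrium of mare 4 had miR-221 at 7298 CPM, where the other pregnant mares had between 4004 and 4938 CPM, and this mare was also the highest in the cyclic cycle. The YS fluid of mare 2 had miR-221 at 14113 CPM, where the other YS fluids had between 826 and 1846 CPM. The same library had miR-222 at 4220 CPM, where the others had between 0 and 689 CPM. Its levels of the pair rested on 204 and 61 reads, the most of any YS fluid.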

How the results depend on the processing

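Of 342 recomputed values for 31 results, 289 kept their direction and their side of the threshold, 16 lost it, 14 gained it, 13 changed sign and 10 ranks of likeness moved. The absence of a call for either mate between pregnant and cyclic samples held under every alternative, as did the call of both mates for embryo against endometrium and against UF and that of miR-222 for pregnant UF against endometrium. The cause of the changes below was not tested.

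In endometrium, miR-221 between the cycles was at -0.028 without mare 3, within a range of -0.028 to 0.20 over the mares left out. For pregnant UF over endometrium, miR-221 passed the fold change of 2 with filterByExpr (1.04) and with known miRNAs only (1.12). For cyclic UF over endometrium, both calls ended in a single fit of 28 libraries (1.33 and 1.69), and leaving out mares gave 1.06 to 1.43 for miR-221 and 1.42 to 1.80 for miR-222. For YS fluid over endometrium, the call of miR-221 ended with DESeq2 (-1.44), with RLE (-1.43) and without mare 4 or mare 5, and leaving out mares gave -4.18 to -1.79. miR-222 there changed sign with DESeq2 (0.76), RLE (0.78), filterByExpr (0.60) and known miRNAs only (0.47), and ranged from -2.84, a call without mare 2, to 0.54 over the mares left out; without the YS fluid of mare 2 it was called at -2.79. For embryo over YS fluid, leaving out mares gave -4.39 to -1.83 for miR-221 and -4.59 to -0.87 for miR-222. The call of miR-222 also ended without the YS fluid of mare 2 (-1.23), filterByExpr left miR-222 out, and DESeq2 gave no p for miR-221. For YS fluid over UF, miR-222 was called in a single fit of 28 libraries (-1.92) and without the YS fluid of mare 2 (-4.27), and leaving out mares gave -4.35 to -0.92. The interaction of miR-222 was 0.15 with RLE and between -0.15 and 0.37 over the mares left out.

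The replicate block by mare changed 2 calls of the pair, both of miR-222 in YS fluid: embryo over YS fluid went to -2.14 and lost its call, and YS fluid over UF went to -3.14 and gained it. With no replicate block, miR-222 in pregnant over cyclic endometrium was at -0.69. The block changed no other call of the pair.

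The adjusted p of the ratio fell below 0.05 for embryo over endometrium with a pseudocount of 1 (-2.54) or none (-2.26), for pregnant UF over endometrium with 1 (-0.89) or none (-0.90), for YS fluid over endometrium with none (-1.90) and for embryo over UF with 1 (-1.65). In embryos and YS fluids, with few reads, a larger pseudocount lowers the highest ratio a library can reach. Using none drops the libraries with 0 reads of miR-222. These values therefore cannot separate a lower ratio from low depth. The position of miR-222 in the likeness to miR-221, and the converse, went from 1 and 1 to 12 and 2 with Spearman's rho, 17 and 2 without YS fluids, 15 and 3 without the YS fluid of mare 2, 8 and 11 in endometrium and UF alone and 46 and 23 for deviations there.

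The number of called miRNAs lay between 0 and 14 in endometrium and between 0 and 26 in UF for pregnancy, 140 and 277 for embryo over endometrium, 75 and 136 for pregnant UF over endometrium, 101 and 235 for embryo over UF, 40 and 140 for embryo over YS fluid, 90 and 186 for YS fluid over UF and 0 and 20 for the interaction. Between 0 and 3 reads of miR-222 per embryo limit every value of that group.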
